A study of Mus musculus with 40 samples.

Results

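The core clock activators and repressors are described here across 40 mice, from each of which the dentate gyrus was hybridised to 1 array. The 10 genes are the activators Arntl, Clock and Npas2, the repressors Per1, Per2, Per3, Cry1 and Cry2, and the nuclear receptors Nr1d1 and Nr1d2. They were listed by their role in the clock, with earlier results of these data known, and every probe set annotated to a single one of them was taken. This gave 23 of the 34958 single-gene probe sets on the array. For each gene the brightest of its probe sets, by the mean of the 40 arrays, stood for the gene, so that the 10 genes stand among 18194 genes measured in the same way, and all 10 were measured with no filter on dim genes.

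The study profiled total RNA from the dentate gyrus of adult mice on the C57BL/6J background, aged 22 to 33 weeks. Of the animals, 37 are labelled mutant and 3 wild type; the mutants are alpha-CaMKII HKO mice, a heterozygous knockout of Camk2a, which encodes the alpha subunit of CaMKII, a kinase of synapses that calcium switches on. The labels name no other allele, promoter or treatment and no pooling of animals. They also give each animal a 24-h LA value, read here as locomotor activity over a day, in a unit that the labels leave out. Sampling hour, sex and the dates of dissection and hybridisation are also not given in the sources used, so the phase of the clock at sampling is unknown for every animal. Among the mutants 24-h LA has a wide gap: 16 mutants lay between 16273.92 and 25590.06 and are called lower-LA, and 21 lay between 41603.46 and 128827.08 and are called higher-LA. The wild types lay between 14301.12 and 20979.78.

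The mammalian clock is a feedback loop of transcription. ARNTL (also BMAL1) pairs with CLOCK, or with its close relative NPAS2 in forebrain, and the pair switches on genes that carry E-boxes, among them the period and cryptochrome genes, whose proteins return to the nucleus and block the pair. The same pair switches on Nr1d1 and Nr1d2, whose proteins (REV-ERB alpha and beta) compete with ROR receptors at ROR elements and hold down Arntl, so that Arntl peaks when the period genes and the REV-ERB genes are low. Outside the suprachiasmatic nucleus, which is set by light, clocks in regions such as the hippocampus follow signals that include behaviour, feeding and glucocorticoids.

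The promoter stretches below are shown because they hold the letters of elements through which members of the loop are known to act on each other. The RefSeq windows of assembly GRCm38.p6, from 250 bases before to 50 bases after each start site, covered 9 of the 10 genes in 13 windows; Per2 is named only. Each line runs 5′ to 3′ on the strand of the gene and has the matched element in capitals. They are, in order, a ROR element (TAGGTCA) in Arntl, 2 D-boxes (TTANGTAA) in Per3, the ROR half-site (AGGTCA) in Nr1d2, E-boxes (CACGTG) in Per1 and Cry1, and 3 E-boxes in Ciart, a further repressor of the ARNTL-CLOCK pair that is no member but is reported beside them.
Arntl, chr7:113207531-113207560, plus strand: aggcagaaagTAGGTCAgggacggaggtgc
Per3, chr4:151044806-151044885, minus strand: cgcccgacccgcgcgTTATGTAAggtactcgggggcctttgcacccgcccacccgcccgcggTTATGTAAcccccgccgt
Nr1d2, chr14:18239147-18239206, minus strand: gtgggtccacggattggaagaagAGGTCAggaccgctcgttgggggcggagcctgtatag
Per1, chr11:69098759-69098838, plus strand: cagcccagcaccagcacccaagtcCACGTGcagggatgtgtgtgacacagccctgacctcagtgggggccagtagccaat
Cry1, chr10:85185095-85185154, minus strand: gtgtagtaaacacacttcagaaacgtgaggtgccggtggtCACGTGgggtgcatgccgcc
Ciart, chr3:95882259-95882358, minus strand: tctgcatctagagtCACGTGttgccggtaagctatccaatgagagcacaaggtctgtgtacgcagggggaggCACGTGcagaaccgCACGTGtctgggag

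The Arntl stretch lies just after the start site, from base 21 to base 50, and the other 5 stretches lie before the start sites of their genes. Both strands of all 32851 windows were searched for 6 motifs. The ROR element was in 2.61% of all windows and, among the members, in Arntl. The D-box was in 2.32% and, among the members, in Per3. The E-box was in 7.15% of windows and in Per1 and Cry1, and its variant CACGTT was in 4.68% and in Cry1, Cry2 and Nr1d1. The half-site AGGTCA, which the ROR element contains, was in 16.3% of windows and in Arntl, Clock, Nr1d2 and Per1. The cAMP response element (TGACGTCA), through which neuronal activity induces period genes, was in 1.79% of windows and in 0 of the 13 windows of the members. A match describes letters only, and an absent match says only that the letters are not in this window.

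Before the clock genes, the labels were checked on Camk2a. Its log2 value was 12.79 and 12.81 in wild types 1 and 2 and lay between 12.004 and 12.314 in 36 of the mutants. The array labelled wild type 3 had 12.08, inside the mutants' range, and the array labelled mutant 27 had 12.90, above wild types 1 and 2. Their 24-h LA was 14301.12 for the array labelled wild type 3, below every mutant, and 46297.38 for the array labelled mutant 27, above every wild type. The second principal component of all genes placed these arrays in the same way, with scores of -34.42 and -34.18 for wild types 1 and 2, -32.95 for the array labelled mutant 27, 2.88 for the array labelled wild type 3, and -4.18 to 10.03 for the other mutants. The first component held 27.17% of the variance, of which 95% lay between 5 runs of 8 consecutive samples in deposited order, within each of which the labelled ages fall from old to young. What a run was in the laboratory is unknown; it was used as a block in each fit, each run held lower- and higher-LA mutants, and calls on the members that change without the 2 arrays are given both ways. Array medians ran from 6.00 to 6.12, and precision is limited by how many arrays there are. The labels call the samples biological replicates and name no litters or cages, so p-values measure the spread between these samples.

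Arntl, the activator at the centre of the loop, rose with 24-h LA among the mutants. Nr1d2, a repressor of Arntl, fell, by a call that sat at the threshold (limma adjusted p = 0.0473). That call was lost with no block and with the run as a random block (limma adjusted p = 0.6 and 0.12). The 3 period genes had slopes below 0, of which that of Per2 missed the test over all mutants and passed when the array labelled mutant 27 was left out. The cryptochromes, Clock, Npas2, Nr1d1, Per1 and Per3 did not pass in either fit. A slope here is the log2 change in expression for each log2 unit of 24-h LA, with the run as a block, and passing means an adjusted p under 0.05 (limma, 2-sided, Benjamini-Hochberg over all 18194 genes). Of the 10 members, 1 rose, 1 fell and 8 did not pass, where 0.132% of all genes rose and 0.11% fell, 0.242% in either direction. Before adjustment 6 members and 10.2% of all genes were under 0.05. The members' slopes lay 4 above 0 and 6 below. In bulk tissue fewer cells of a type and less RNA per cell cannot be told apart.

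Arntl, the partner shared by CLOCK and NPAS2, had log2 values from 7.58 to 8.03 in the lower-LA mutants, with a median of 7.80, and from 7.71 to 8.32 in the higher-LA mutants, with a median of 8.07. The groups overlapped, but 13 of the 21 higher-LA mutants lay above the highest lower-LA mutant, 20 lay above the lower-LA median, and the lowest higher-LA value was that of the array labelled mutant 27. After subtraction of each run's mean, 18 of 21 higher-LA mutants were above 0 and 15 of 16 lower-LA mutants below it. The slope was 0.14 (SE 0.022, limma adjusted p = 0.00084, n = 37), rank 6 of 18194 genes by p-value. The higher-LA mutants exceeded the lower-LA mutants by 0.27 (SE 0.045, limma adjusted p = 0.00326), a contrast in which 0.11% of all genes passed and 1 of the 10 members, Arntl, did. Without the array labelled mutant 27 the slope was 0.14 (adjusted p = 0.00032, limma) and the difference 0.29 (adjusted p = 0.000601, limma), where 0.539% and 0.247% of all genes passed. Without run 5 the slope kept its size, 0.14, and missed the threshold (adjusted p = 0.0765, limma), in a fit in which 0 genes passed and 1672 were under an unadjusted 0.05. The difference between the sides was 0.27 without run 5 (adjusted p = 0.0756, limma), in a fit in which 3 genes passed.

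Npas2, which can replace CLOCK as partner of ARNTL, ran from 5.96 to 6.62 in lower-LA mutants with a median of 6.30, and from 5.87 to 6.79 in higher-LA mutants with a median of 6.48. The ranges overlapped over most of their length, with 16 of 21 higher-LA mutants above the lower-LA median. Its slope of 0.071 (SE 0.031) did not pass (limma adjusted p = 0.416, and 0.248 without the array labelled mutant 27). Clock, whose protein is the usual partner of ARNTL, ran from 8.87 to 9.39 in lower-LA mutants with a median of 9.21, and from 8.87 to 9.37 in higher-LA mutants with a median of 9.26. These ranges nearly coincided, and the slope of 0.022 had a 95% interval from -0.012 to 0.055 (limma adjusted p = 0.693).

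**Figure D1:**
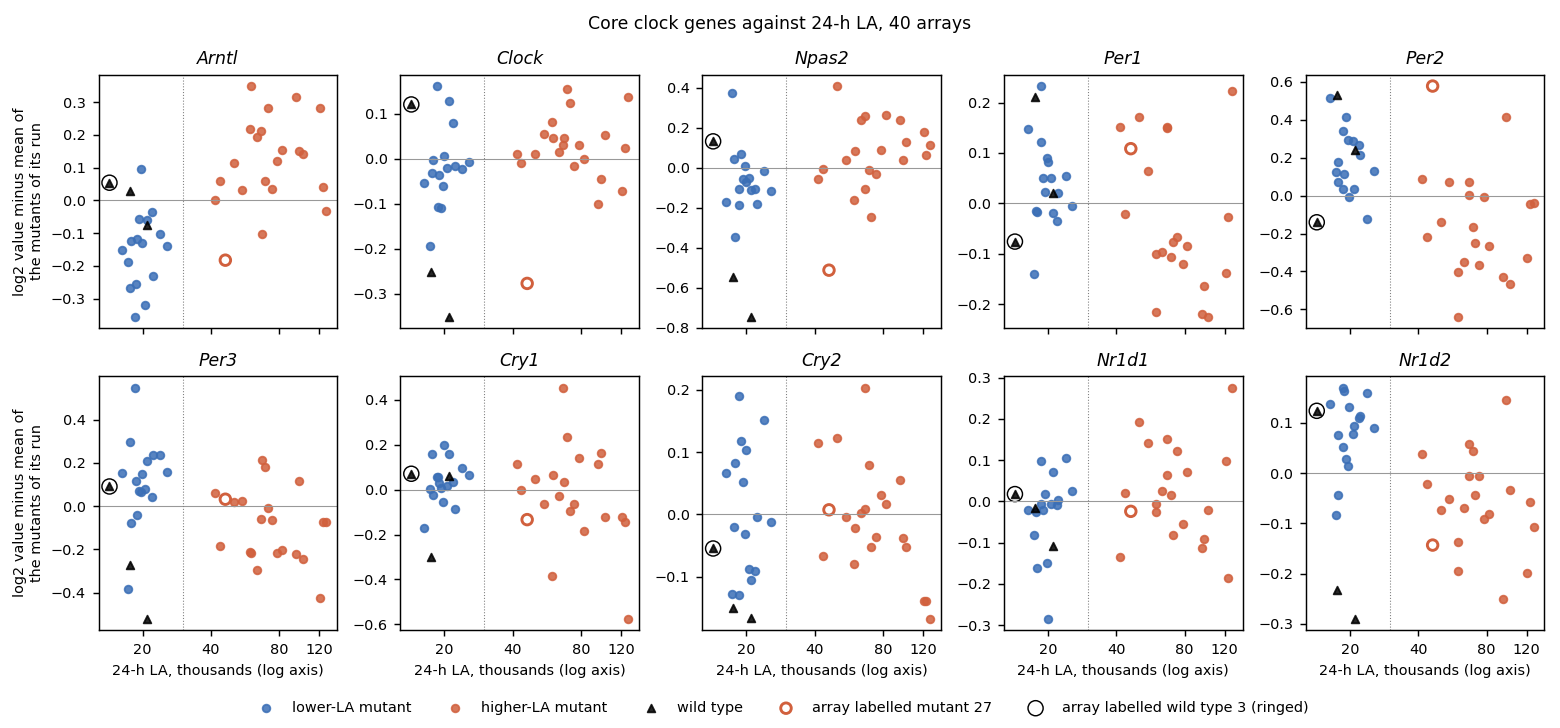
Log2 value of each core clock gene, minus the mean of the mutants of its run, against 24-h LA on a log axis, with 1 point per animal; the dotted line marks 24-h LA 30000, the open circle is the array labelled mutant 27 and the ringed triangle the array labelled wild type 3. Arntl was above 0 in 18 of 21 higher-LA mutants and below it in 15 of 16 lower-LA mutants, while Per2 and Nr1d2 lay the other way and Clock, Cry2 and Nr1d1 showed overlapping groups.

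Per2, whose protein is a core part of the repressor complex, ran from 5.70 to 6.56 in lower-LA mutants with a median of 6.25, and from 5.23 to 6.68 in higher-LA mutants with a median of 5.84. In 20 of 21 higher-LA mutants it was below the lower-LA median; the exception was the array labelled mutant 27, with 6.68 the highest mutant value. After subtraction of run means, 12 of the 21 lay below every lower-LA mutant. The slope was -0.17 (SE 0.041) and missed the threshold over all mutants (limma adjusted p = 0.0616). Without the array labelled mutant 27 it was -0.18 (SE 0.037) and passed (limma adjusted p = 0.0162), and the difference between the sides moved from -0.32 (SE 0.083, adjusted p = 0.125, limma) to -0.36 (SE 0.072, adjusted p = 0.0127, limma).

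Per3, the period gene least needed for rhythm, ran from 7.52 to 8.53 in lower-LA mutants with a median of 8.09, and from 7.59 to 8.12 in higher-LA mutants with a median of 7.87. Of the higher-LA mutants, 18 of 21 were below the lower-LA median, and 8 of 16 lower-LA mutants were above every higher-LA mutant. The slope of -0.11 (SE 0.031) did not pass with or without the array labelled mutant 27 (limma adjusted p = 0.129 and 0.1). Per1, the period gene most readily induced by light, glucocorticoids and neuronal activity, ran from 7.06 to 7.60 in lower-LA mutants with a median of 7.22, and from 6.95 to 7.59 in higher-LA mutants with a median of 7.15. The groups overlapped widely, with 14 of 21 higher-LA mutants below the lower-LA median, and the slope of -0.048 (SE 0.021) did not pass (limma adjusted p = 0.412).

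Cry1, the cryptochrome with the stronger repression of the ARNTL-CLOCK pair, ran from 6.54 to 7.23 in lower-LA mutants with a median of 7.03, and from 5.99 to 7.52 in higher-LA mutants with a median of 6.96. The higher-LA range enclosed the lower-LA range, and its 2 ends were mutants 6 and 8. The slope was -0.045 (SE 0.030, limma adjusted p = 0.636). Cry2 ran from 7.78 to 8.24 in lower-LA mutants and from 7.77 to 8.20 in higher-LA mutants, with medians of 7.93 in both. Its ranges nearly coincided, and the 95% interval of its slope ran from -0.057 to 0.013 (limma adjusted p = 0.699).

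Nr1d2, which encodes REV-ERB beta, ran from 10.24 to 10.93 in lower-LA mutants with a median of 10.78, and from 10.03 to 10.77 in higher-LA mutants with a median of 10.59. All 21 higher-LA mutants were below the lower-LA median, and 9 of 16 lower-LA mutants were above every higher-LA mutant. The slope was -0.070 (SE 0.016, limma adjusted p = 0.0473, and 0.0302 without the array labelled mutant 27), and the difference between the sides was -0.14 with and without that array (SE 0.031 in both, adjusted p = 0.0515 and 0.0444, limma). The call on the slope sat at the threshold. It was lost with no block (adjusted p = 0.6, limma), with the run as a random block (0.12), on the linear or rank scale of 24-h LA (0.0784 and 0.115), on median-centred arrays (0.0792) and when run 2, 3, 4 or 5 was left out, where the adjusted p in limma was 0.0947, 0.16, 0.123 and 0.322. Nr1d1, which encodes REV-ERB alpha, ran from 5.33 to 6.11 in lower-LA mutants with a median of 5.63, and from 5.33 to 6.29 in higher-LA mutants with a median of 5.66. Its groups overlapped over nearly their whole range, and its slope of 0.026 had a 95% interval from -0.014 to 0.066 (limma adjusted p = 0.687).

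**Figure D2:**
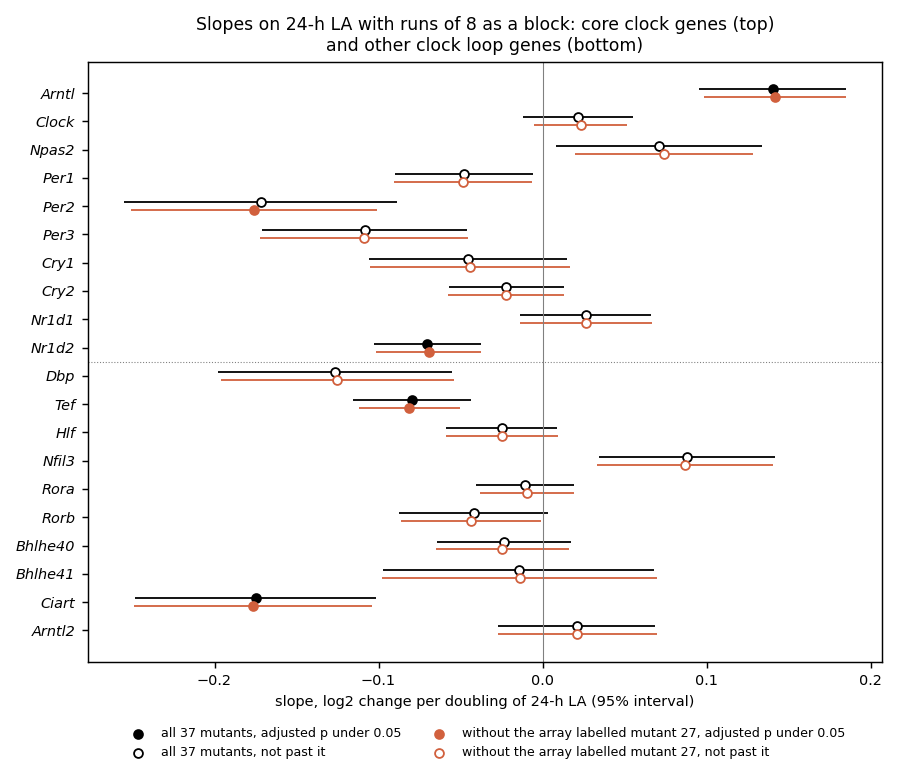
Slope on 24-h LA with its 95% interval for the 10 core clock genes (top) and 10 other genes of the loop (bottom), over all 37 mutants (black) and without the array labelled mutant 27 (orange); filled points passed an adjusted p of 0.05 and the x axis is the log2 change per log2 unit of 24-h LA. Arntl at 0.14 lies furthest above 0, Nr1d2, Tef and Ciart are filled below 0 in both fits, and Per2 is filled in the fit without that array.

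The slopes had the same sign in each of the 5 runs for 4 members. The share of all genes with such agreement was not counted, so whether these 4 members exceed the background was not tested. The slope of Arntl ran from 0.10 to 0.19 over the runs and was above 0 in 5 of 5. Per2 ran from -0.40 to -0.044, Per3 from -0.22 to -0.0095 and Nr1d2 from -0.11 to -0.037, all below 0 in 5 of 5 runs. Per1 and Cry1 were below 0 in 4 of 5 runs, Npas2, Clock and Nr1d1 were above 0 in 4 of 5, and Cry2 was below 0 in 3 of 5. Each run held 7 or 8 mutants, so a slope within a run has no test of its own here.

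**Figure D3:**
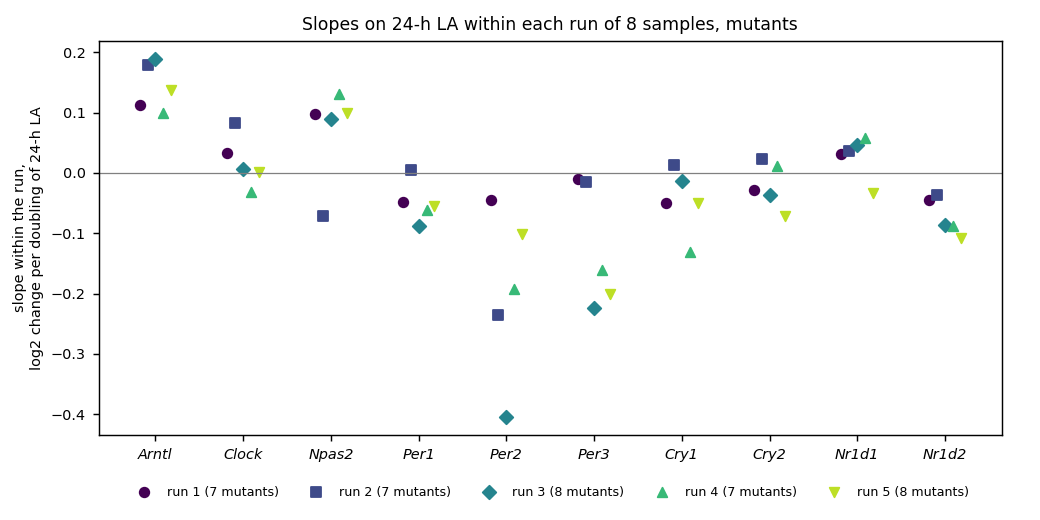
Slope of each core clock gene on 24-h LA fitted within each of the 5 runs of 8 samples, in log2 change per log2 unit of 24-h LA, with 1 symbol per run. All 5 symbols lie above 0 for Arntl and below 0 for Per2, Per3 and Nr1d2, and Per2 spreads most, from -0.40 to -0.044.

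Within a side of 24-h LA 30000 no member could be shown to follow activity. In the lower-LA mutants 0% of the 18194 genes and 0 of the 10 members passed (limma, all adjusted p at 1 for the members), with 621 genes and 0 members under an unadjusted p of 0.05. In the higher-LA mutants 0% of genes and 0 members passed, with 1045 genes and 1 member, Cry2, under an unadjusted 0.05. Arntl had a slope of 0.26 (SE 0.24) in the lower-LA and 0.086 (SE 0.066) in the higher-LA mutants. Per2 had -0.61 (SE 0.45) and -0.13 (SE 0.12), and Cry2 had -0.042 (SE 0.18) and -0.12 (SE 0.049, limma adjusted p = 0.833). The standard errors within the lower-LA side were large beside the slopes, since its 24-h LA spans a short range. Nr1d2 had 0.18 (SE 0.17) and -0.035 (SE 0.047), and Per3 had 0.37 (SE 0.33) and -0.12 (SE 0.090), so that the slopes of each had opposite signs in the sides, and none of these 4 slopes passed. The difference of the slopes passed for 0% of genes and 0 members, with 533 genes under an unadjusted 0.05.

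Where a gene has several probe sets, they were compared for the sign of the slope. With every probe set tested on its own, 0.152% of 34958 passed, and both probe sets of Arntl were among them, with 0.14 (SE 0.022, adjusted p = 0.0018, limma) and 0.13 (SE 0.029, adjusted p = 0.0431, limma). All 3 probe sets of Per2 lay below 0, at -0.17, -0.11 and -0.12, and 5 of 6 of Per3 did. The Per2 probe set at -0.12 was dim, with a mean log2 value of 3.985. Those of Per3 with slopes of -0.040 and 0.044 were also dim, at means of 3.927 and 3.567. Of the 4 probe sets of Clock 3 lay above 0. The brighter probe set of Nr1d2 had -0.070 (adjusted p = 0.0681, limma), and its second, far dimmer one, at a mean log2 value of 4.79, had 0.032 (SE 0.050, adjusted p = 0.893, limma). On the mean of all probe sets of a gene, Per2 passed at -0.13 (adjusted p = 0.0292, limma) and Nr1d2 did not at -0.019 (adjusted p = 0.894, limma). On that mean the slope of Per3 was -0.047 (SE 0.024, adjusted p = 0.546, limma), smaller in size than by the brightest probe set, and that of Clock was 0.035 (SE 0.013, adjusted p = 0.36, limma).

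Other genes of the loop were taken from a list of 11, of which 10 were measured. On the slope 0 rose, 2 fell and 8 did not pass, with a median of -0.024 beside 0.00071 for all genes. Ciart, whose promoter stretch with 3 E-boxes is printed above, fell by 0.17 per log2 unit (SE 0.036, limma adjusted p = 0.0262). Tef, a PAR bZIP factor that acts through D-boxes, fell by 0.079 (SE 0.018, limma adjusted p = 0.0429). Its relative Dbp had -0.13 (SE 0.035, adjusted p = 0.121, limma). Nfil3, which represses at the same D-boxes and has a ROR element in its own window, had 0.088 (SE 0.026, adjusted p = 0.161, limma). Ciart and Tef both also passed without the array labelled mutant 27 (limma adjusted p = 0.0125 and 0.00601). Neither passed without run 5, where 0 of all genes did. The 6 remaining genes of the list were between -0.042 for Rorb and 0.021 for Arntl2.

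Kinases, ubiquitin ligases and other modifiers of clock proteins were given by a list of 18, of which 17 were measured. On the slope 0 of the 17 passed and 3 were under an unadjusted 0.05, as were 10.2% of all genes, with a median of 0.0067. The smallest p-values belonged to Timeless at 0.093 (SE 0.030), Btrc at 0.029 (SE 0.012) and Csnk1d at -0.030 (SE 0.013), with adjusted p of 0.213, 0.367 and 0.395 in limma. Timeless is better known for its work at the replication fork, Btrc is a ubiquitin ligase subunit that marks period proteins, and Csnk1d is a kinase that phosphorylates them.

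Genes that share inputs with Per1 and Per2 were examined for movement with 24-h LA. Beside the 10.2% of all genes under an unadjusted 0.05 the lists were counted as follows. Of 18 immediate-early genes, which neurons induce on firing, 0 passed on the slope and 2 were under an unadjusted 0.05, Nr4a3 at -0.054 (SE 0.022) and Egr4 at 0.062 (SE 0.029). Of 14 glucocorticoid-responsive genes 0 passed and 6 were under an unadjusted 0.05, with a median of 0.043. These included the metallothioneins Mt1 at 0.057 (SE 0.015, adjusted p = 0.107, limma) and Mt2 at 0.061 (SE 0.023), while Pdk4, a kinase that restrains glucose oxidation, had -0.094 (SE 0.029). Of 9 measured heat shock genes 0 passed and 3 were under an unadjusted 0.05.

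Measures of RNA and of other cell types were taken beside these slopes. The difference between the 3′ and 5′ control probe sets of actin had a slope on 24-h LA of -0.024 (SE 0.0082), and that of Gapdh 0.012 (SE 0.0080). On the slope over all mutants 0 of the 46 measured markers of 9 cell types passed. The astrocyte markers Gja1 at -0.056 (SE 0.014, adjusted p = 0.0666, limma) and Aqp4 at -0.067 (SE 0.020), the oligodendrocyte marker Opalin at -0.12 (SE 0.032) and the microglia marker Aif1 at -0.068 (SE 0.021) had the smallest p-values among markers, and without the array labelled mutant 27 1 of the 5 astrocyte markers passed. These named markers do not stand for their lists. The median slope of the 5 astrocyte markers was 0.0077, above 0, with 3 of the 5 under an unadjusted 0.05. The median slopes of the oligodendrocyte and microglia markers were -0.011 and -0.011. The mean log2 level of the 5 astrocyte markers lay between 10.01 and 10.20 in lower-LA and between 9.94 and 10.21 in higher-LA mutants. Choroid plexus markers spread most, with a mean level from 4.30 to 7.16 in lower-LA and from 4.33 to 8.51 in higher-LA mutants, a range of several log2 units in each group. Of the 4 meningeal and mural markers 0 passed and 2 were under an unadjusted 0.05, Dcn at -0.24 (SE 0.093, adjusted p = 0.344, limma) and Lum at -0.19 (SE 0.075, adjusted p = 0.335, limma), both genes of fibroblast matrix. The median slope of these 4 was -0.12, and their mean level lay between 5.33 and 6.92 in lower-LA and between 5.27 and 6.30 in higher-LA mutants. The part of all these measures in the slopes of the clock genes was not tested. With age in the model the slope of Arntl was 0.14 (adjusted p = 0.000483, limma) and that of Nr1d2 -0.069 (adjusted p = 0.0442, limma).

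Across animals, members of the loop were then compared with each other within each side, on values centred on the run, over 45 pairs and both sides, which gives 90 relations. Of these, 1 passed by Pearson's r with adjusted permutation p, Cry1 with Cry2 among the higher-LA mutants, and 14 were under 0.05 before adjustment; by Spearman's rho 0 of 90 passed. The relation of Cry1 and Cry2 had r = 0.84 (permutation p = 0.00015, adjusted 0.0135, n = 21) and rho = 0.78 (permutation p = 0.00066, adjusted 0.0594). Without mutants 6 and 8, the 2 farthest on Cry1, r was 0.76. It rested on the centring, since without it r was 0.0060 (permutation p = 0.978, adjusted 0.996). Without the array labelled mutant 27 r was 0.84 (adjusted permutation p = 0.0216). In the 16 lower-LA mutants r was 0.097 (permutation p = 0.737, adjusted 0.934), and the difference between the sides was not tested.

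The next 3 relations, all with Per3, had an adjusted p of 0.0542, and they moved with the array labelled mutant 27 and with the centring. Arntl and Per3 had r = -0.69 (permutation p = 0.00208, adjusted 0.0542; rho = -0.70, permutation p = 0.00138, adjusted 0.0621) in the 21 higher-LA mutants. Per2 and Per3 had r = 0.67 (permutation p = 0.00193, adjusted 0.0542; rho = 0.63, permutation p = 0.00818, adjusted 0.123), and Per3 and Nr1d2 had r = 0.70 (permutation p = 0.00241, adjusted 0.0542; rho = 0.68, permutation p = 0.00403, adjusted 0.0725). Without the 2 farthest animals these were -0.62, 0.70 and 0.63. Without the array labelled mutant 27, Per3 with Nr1d2 passed at r = 0.77 (adjusted permutation p = 0.0238), and the other 2 did not, at -0.68 and 0.70 (both adjusted permutation p = 0.0864). On values not centred on run, where 25 of the 90 relations passed, Per3 with Nr1d2 had r = 0.24 (adjusted permutation p = 0.455), whereas Arntl with Per3 and Per2 with Per3 passed at -0.69 and 0.61 (adjusted permutation p = 0.0102 and 0.0166). Values not centred were permuted across the runs of a side, so run differences that 2 genes share enter these p-values. Per2 with Nr1d2 had r = 0.48 over all 21 higher-LA mutants (permutation p = 0.0407, adjusted 0.302; rho = 0.49) and passed without the array labelled mutant 27 at 0.77 (adjusted permutation p = 0.0441). Arntl had r = -0.63 with Per1 and -0.64 with Per2 (permutation p = 0.00757 and 0.0091, both adjusted 0.136; rho = -0.66 and -0.69). Without the 2 farthest animals, mutants 14 and 27, these were -0.58 and -0.46.

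In the 16 lower-LA mutants no pair passed on run-centred values, and the smallest adjusted permutation p was 0.302. Per3 and Nr1d2 had r = 0.71 there (permutation p = 0.0402, adjusted 0.302; rho = 0.65), which fell to 0.46 without mutants 9 and 22. Arntl had r = -0.47 with Per3 and 0.090 with Per2 (permutation p = 0.116 and 0.645). Over the 45 pairs, 30 had the same sign in both sides, 21 above 0 and 9 below. All genes of an array share its RNA and hybridisation, so pairs are not independent of each other.

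**Figure D4:**
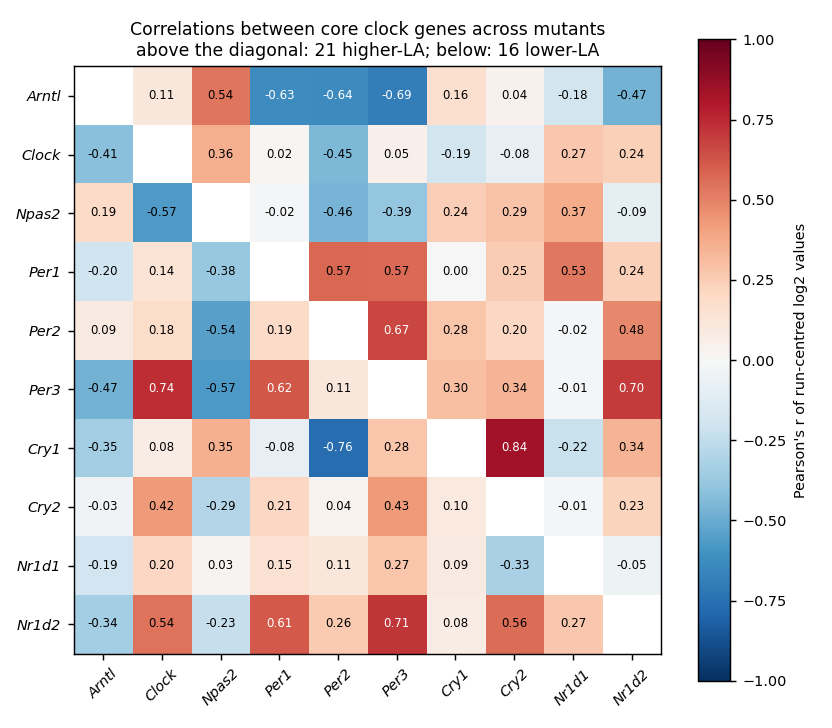
Pearson's r between core clock genes on run-centred log2 values, above the diagonal in the 21 higher-LA mutants and below it in the 16 lower-LA mutants, with red above 0 and blue below. Cry1 with Cry2 in the higher-LA mutants, 0.84, is the only one of the 90 values past the adjusted threshold; Arntl is blue against Per1, Per2 and Per3 above the diagonal.

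Genotype was compared over all 40 arrays, with the run as a block. As labelled, 0 of the 10 members passed, where 7.49% of all genes did, and 2 members and 21.2% of all genes were under 0.05 before adjustment. With the arrays labelled wild type 3 and mutant 27 left out, Npas2, Clock and Nr1d2 were higher in mutants than in wild types, 3 of 10 members, where 8.85% of all genes were higher, 11.1% lower and 20% either. The wild types are then 2 animals, each in a run of its own. The 2 arrays were set aside on Camk2a and on a component computed from all genes, so this fit is not independent of the genotype's own pattern.

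Npas2 had 5.56, 5.70 and 6.52 in wild types 1, 2 and 3, and 5.87 in the array labelled mutant 27. All 7 mutants of the run of wild type 1 and all 7 of the run of wild type 2 lay above their wild type, and the 6 other mutants of run 4 lay above the array labelled mutant 27, whereas 2 of those 6 lay above wild type 3. The difference was 0.39 as labelled (SE 0.13, limma adjusted p = 0.0639) and 0.65 without the 2 arrays (SE 0.13, adjusted p = 0.000247, limma). Clock had 8.62, 8.99 and 9.37 in wild types 1, 2 and 3, and 8.97 in the array labelled mutant 27. It showed the same order within runs, with 7 of 7, 7 of 7 and 6 of 6 mutants above wild type 1, wild type 2 and the array labelled mutant 27, and 1 of 6 above wild type 3. The difference was 0.16 as labelled (SE 0.068, adjusted p = 0.148, limma) and 0.30 without the 2 arrays (SE 0.064, adjusted p = 0.000469, limma). Both calls rested on wild type 1: with that animal left out too, Npas2 was at 0.55 (adjusted p = 0.0593, limma) and Clock at 0.25 (adjusted p = 0.0843, limma), and with wild type 2 left out instead both passed, at 0.74 and 0.35 (adjusted p = 0.00388 and 0.0056, limma). The lone wild type is assumed there to vary like the mutants.

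Nr1d2 had 9.99, 10.47 and 10.75 in wild types 1, 2 and 3, and 10.48 in the array labelled mutant 27. Again 7 of 7, 7 of 7 and 6 of 6 run mates lay above wild type 1, wild type 2 and the array labelled mutant 27, and 1 of 6 lay above wild type 3. The difference was 0.13 as labelled (SE 0.077, adjusted p = 0.33, limma) and 0.26 without the 2 arrays (SE 0.086, adjusted p = 0.0264, limma). With 24-h LA in the model, where 1211 of the 18194 genes passed, it was 0.22 as labelled and passed (adjusted p = 0.0383, limma). It did not pass with wild type 1 or wild type 2 left out as well, at 0.23 and 0.29 (adjusted p = 0.339 and 0.102, limma). Without the 2 arrays and with no block it was 0.40 and missed the threshold (adjusted p = 0.0722, limma). Nr1d2 was higher in mutants in the blocked fit without the 2 arrays. Among mutants it was lower at higher 24-h LA, by a call at the threshold. Arntl differed by genotype in the same blocked fit by 0.024 (SE 0.14, adjusted p = 0.939, limma), with a 95% interval from -0.26 to 0.31. With every probe set tested on its own, its dimmer probe set was at -0.27 (SE 0.16, adjusted p = 0.31, limma).

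Per3 had 7.36, 7.63 and 8.17 in the wild types and 8.11 in the array labelled mutant 27, so here that array lay among its run mates, 3 of 6 of which were above it. Its difference without the 2 arrays was 0.40 (SE 0.16, adjusted p = 0.0781, limma). With no block it was 0.47 and passed (adjusted p = 0.0311, limma), as did Npas2 and Clock, where 6.06% of all genes were higher. As labelled and with no block, Per3, Npas2 and Clock were at 0.25, 0.44 and 0.20. They did not pass there (adjusted p = 0.394, 0.0534 and 0.32, limma). Per2 had 5.90, 6.58 and 5.97 in the wild types and 6.68 in the array labelled mutant 27, with 0 of the 6 other mutants of run 4 above that array. Its difference without the 2 arrays, with the run as a block, was -0.39 (SE 0.21, adjusted p = 0.217, limma). Cry1, Cry2, Per1 and Nr1d1 had differences of 0.12, 0.16, -0.12 and 0.062 without the 2 arrays, with adjusted p from 0.16 to 0.702 in limma.

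**Figure D5:**
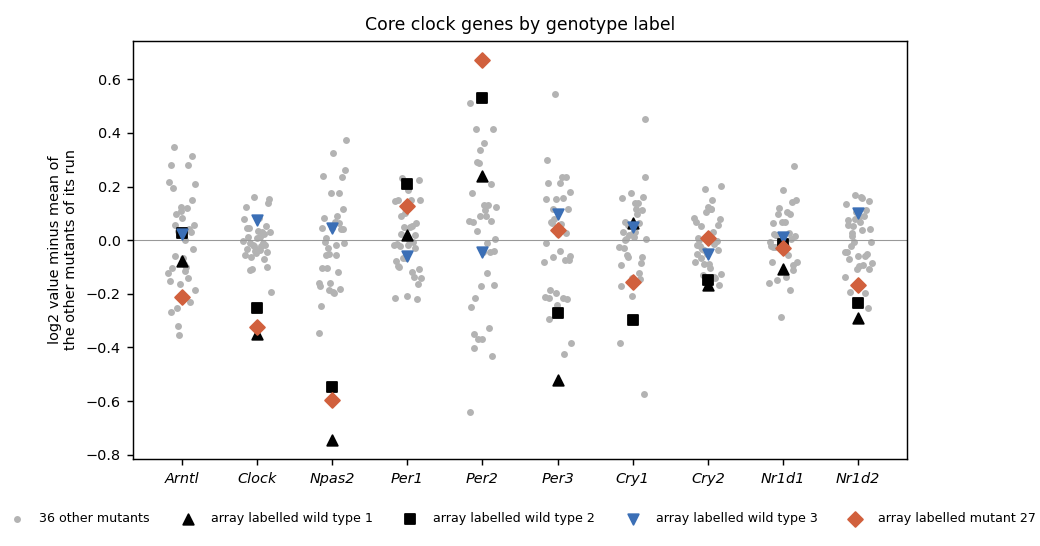
Log2 value of each core clock gene minus the mean of the other mutants of its run, with 36 mutants in grey and the arrays labelled wild type 1, 2 and 3 and mutant 27 as larger symbols. For Clock, Npas2 and Nr1d2 wild types 1 and 2 lie below 0 and the array labelled mutant 27 beside them, while the array labelled wild type 3 lies above 0. For Nr1d2 the grey points run from -0.25 to 0.17. Wild type 2 at -0.23 and the array labelled mutant 27 at -0.17 lie within that range.

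The 24-h LA of the wild types overlaps that of the lower-LA mutants, so the genotype was also compared over the 16 lower-LA mutants alone, without wild type 3. In that comparison 6.71% of all genes were higher and 3 of the 10 members were: Npas2 by 0.62 (SE 0.12), Clock by 0.23 (SE 0.072) and Nr1d2 by 0.31 (SE 0.069), with adjusted p of 0.00154, 0.0426 and 0.0055 in limma. This comparison uses the same 2 wild types as the one above. With wild type 3 included, Npas2, Clock and Nr1d2 differed by 0.34, 0.14 and 0.20. They did not pass there (adjusted p = 0.17, 0.273 and 0.0938, limma). By probe set, without the 2 arrays and where 15.8% of all probe sets passed, 1 of the 2 probe sets of Npas2, 2 of the 4 of Clock, 1 of the 2 of Nr1d2 and 2 of the 6 of Per3 did. The 2 of Per3 that passed were 0.56 (SE 0.15) and 0.76 (SE 0.19), and all 6 lay above 0. The dimmest of the 6, at mean log2 values of 3.927 and 3.567, were at 0.28 and 0.081.

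Without the 2 arrays 20% of all genes passed, 8.85% higher and 11.1% lower in mutants, and the other lists were counted beside that. Of the 10 other loop genes, 1 rose and 2 fell: Rora, a receptor that activates at ROR elements, rose by 0.25 (SE 0.063, adjusted p = 0.0038, limma), Tef fell by 0.32 (SE 0.090, adjusted p = 0.00834, limma) and Nfil3 fell by 0.37 (SE 0.13, adjusted p = 0.0498, limma). Of the 17 modifiers 4 rose and 2 fell; among them Prkaa2, a catalytic subunit of AMP-activated kinase, rose by 0.55 (SE 0.069) and Usp2, a deubiquitinase of clock proteins, by 0.47 (SE 0.093). Of the 18 immediate-early genes 7 rose, 2 fell and 9 did not pass, with a median of 0.13 beside -0.012 for all genes. Egr1, a zinc finger factor induced by synaptic activity, rose by 1.37 (SE 0.058), while Egr2 fell by 0.51 (SE 0.087) and Sik1 by 0.38 (SE 0.12). Of the 7 granule neuron markers 5 fell, among them Tdo2 at -5.68 (SE 0.18) and Dsp at -6.65 (SE 0.25), which mark mature granule cells, and Prox1, the fate determinant of these cells, was at -0.25 (SE 0.11, adjusted p = 0.102, limma). The mean log2 level of the 7 granule neuron markers was taken with the 2 arrays included. It was 9.49 and 9.61 in the higher 2 wild types and 6.89 in the lowest. Lower-LA mutants had 6.85 to 7.06, and higher-LA mutants had 6.81 to 9.58 with a median of 6.96. Whether the 6.89 and the 9.58 came from the 2 arrays was not tested. Of the 5 microglia markers 4 fell and of the 7 CA pyramidal neuron markers 3 fell. The part of these shifts in the differences of the clock genes was not tested.

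The genes most like a member were taken from the upper part of the 18194 genes by mean level, by Pearson's r over the 37 mutants after centring on run and side, as a description with no test. Symbols of uncharacterised clones were skipped, which left 8873 or 8874 genes to rank. For Arntl, r was highest with Tafa1 (0.72), Uchl5 (0.72), Pitpnb (0.70) and Ahsa1 (0.67) and lowest with Ncam1 (-0.75), Fam122a (-0.72), Nav1 (-0.66) and Kcnip4 (-0.66). For Per2 it was highest with Erc2 (0.75), Tm7sf3 (0.73), Sidt1 (0.73) and Me3 (0.73) and lowest with Prex1 (-0.76), Sema4c (-0.76), Cript (-0.76) and Nsmce4a (-0.75). These values rest in part on 1 array: without the array labelled mutant 27 the r of Arntl with Tafa1 was 0.65 and with Kcnip4 -0.55, and that of Per2 with Me3 was 0.58.

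For Nr1d1, r was highest with Ssr4 (0.67), Clcn2 (0.64), Ctsf (0.61) and Acd (0.61), and lowest with Ndufaf4 (-0.58), Rexo4 (-0.57), Caap1 (-0.56) and Csnk1g3 (-0.56). Without that array the r of Nr1d1 with Clcn2 was 0.64 and with Ctsf 0.67. For Per1, r was highest with Xpo6 (0.63), Ubr2 (0.62), Ptcd1 (0.61) and Hexdc (0.61), and lowest with Rab8a (-0.64), Ndufaf8 (-0.61), Cox7a2 (-0.59) and Cox20 (-0.58). Arntl itself had r = -0.49 with Per1 on the same scale.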

How the data were processed

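Biotin-labelled RNA from 40 animals was put on Affymetrix arrays, per the labels' protocols. The deposited values are log2 expression per probe set from RMA, per the submitters' processing notes, which give no version; RMA subtracts background, equalises the arrays' distributions and sums up the probes of a set, so differences are relative to each array's overall distribution. Of 45101 probe sets, 34958 name 1 gene and 932 several; 34754 of the former were matched by gene ID to RefSeq's list, which changed 0 symbols. Each gene took its probe set of highest mean, with no filter on dim genes. The fits used lmFit and eBayes of limma 3.58.1 in R 4.3.3, with data.table version 1.17.8, with runs of 8 consecutive samples as a fixed block and Benjamini-Hochberg adjustment over 18194 genes. The scripts were tested on simulated data. Correlations were permuted with 100000 draws, within run and side on centred values and within side alone on values not centred. All members are named; from each list up to 4 genes of smallest slope p were named, with further genes in the genotype comparison chosen after their values were seen. The members and lists were chosen with earlier results of these data known. The closest 2 arrays differed by an SD of 0.152 over genes, beside a median of 0.246, so no array was counted as a copy of another. Mutants and wild types 1 to 3 share numbers: deviations of same-numbered pairs correlated at 0.029, 0.053 and 0.044 over genes, too low to pair them. Alternatives were the block, the 2 arrays with doubtful labels, the scale of 24-h LA, age, centring, the probe set rule and leaving out each run or wild type.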

Additional observations from a re-analysis of the deposited data

How the results depend on the processing

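The number of genes passing the slope fit, 44 as reported, was 12 with no block, 98 without the array labelled mutant 27, 89 in the upper part of genes by mean, 27 on the mean of all probe sets and 0 to 28 when each run was left out, with 0 without run 5 (limma; 1672 under an unadjusted 0.05). The contrast of the sides, 20 genes, gave 8 with no block, 45 without the array labelled mutant 27, 52 in the upper part of genes and 3 to 14 when each run was left out, a setting chosen after seeing the data. With no block 1 gene had a slope in the lower-LA side and 3 had a difference of slopes, instead of 0. The slope of Arntl kept its direction under every alternative tried and lost its call without run 5. The genotype count, 1363, was 719 with no block, 3631 without both doubtful arrays (labelled wild type 3 and mutant 27), 2604 without them and with no block, 2740 over lower-LA mutants without wild type 3 (these last 2 chosen after seeing the data), and 0 to 3431 when each wild type was left out, with 0 without wild type 1 or 2 (limma; 1308 and 2540 under an unadjusted 0.05). With both doubtful arrays and also wild type 1 or wild type 2 left out, chosen after seeing the data, it was 1563 and 3274. As a replicate block on the 3 same-numbered pairs it was 0 (limma, with 2615 under an unadjusted 0.05). Each of the 3 mutants correlated best with the wild type of its own number, but at 0.029, 0.053 and 0.044. These values are too low to pair the samples, and the design gives no such pairing. Among correlations, 25 of 90 passed on values not centred on run, permuted across runs, and 3 without the array labelled mutant 27, instead of 1. For these counts the cause was not tested.

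Directions turned for values that did not pass as labelled. With no block the lower-side slopes of Npas2, Per2 and Nr1d1 were 0.25, 0.095 and -0.43, the higher-side slope of Clock was -0.059, and the differences of slopes of Npas2, Per2, Cry2 and Nr1d1 were -0.12, -0.34, 0.20 and 0.55. Without the array labelled mutant 27 the higher-side slopes of Clock and Nr1d1 were -0.011 and -0.00077; with age in the model that of Nr1d1 was -0.0089, and on the mean of probe sets that of Nr1d2 was 0.095. In the genotype comparison Arntl was 0.030 with no block, 0.024 without the 2 arrays, 0.049 without them and with no block, 0.021 on median-centred arrays, and -0.041, 0.011 and 0.024 without wild type 1, 2 and 3. Nr1d1 was -0.061 with no block, -0.12 with no block and without the 2 arrays, -0.013 over lower-LA mutants and -0.0014 to 0.062 when each wild type was left out. Per1 was 0.0063 with 24-h LA in the model and 0.028 without wild type 2, and Cry1 was -0.067 to 0.12 when each wild type was left out. With both doubtful arrays and wild type 1 left out Cry1 was 0.30; with both and wild type 2 left out Arntl was 0.077, Cry1 -0.063 and Nr1d1 0.11. With the replicate block Clock, Per1, Cry1 and Nr1d2 were -0.070, 0.13, -0.21 and -0.068, so that Clock and Nr1d2, higher in mutants and past the threshold without the 2 arrays, lay below 0 over these 3 pairs, which hold wild type 3 (adjusted p = 0.879 and 0.862, limma).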

Other observations

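Age ran from 22 to 33 weeks, and a slope per week of age among the 37 mutants, with 24-h LA and the run in the model, was fitted after the other comparisons had been seen. On it 0.693% of all genes passed and 0 of the 10 core clock genes did, while Arntl, Clock and Per3, and 13.2% of all genes, were under 0.05 before adjustment. Per3 was at -0.027 per week (SE 0.0076, limma adjusted p = 0.0854), Arntl was at 0.014 (SE 0.0059, adjusted p = 0.287, limma) and Clock at -0.010 (SE 0.0044, adjusted p = 0.314, limma). Dbp, the PAR bZIP factor of the loop, was at -0.031 per week (SE 0.0087, adjusted p = 0.0869, limma).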
